A study of Mus musculus with 72 samples.

Results

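OCT4 sites gained at NANOG-bound regions were followed in mouse embryonic stem cells (ESCs) that lack HMGN1 and HMGN2. Of 35163 merged OCT4 sites, 10116 (28.8%) were called in both libraries of the double knockout (DKO) and in neither wild type (WT) library, and 5016 of these also overlapped a NANOG peak of both WT libraries. OCT4 peaks of the 4 libraries were merged where they shared 1 bp or more. The sites were therefore chosen by their OCT4 calls and by the WT NANOG calls. The OCT4 values and the NANOG calls are given as a description, without a test. NANOG strength was compared between genotypes in limma, with WT values that the choice conditions.

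HMGN1 and HMGN2 are small nuclear proteins that bind nucleosomes and are found at enhancers and promoters. The study set WT cells (Hmgn1+/+ and Hmgn2+/+) beside DKO cells (Hmgn1-/- and Hmgn2-/-) of strain C57BL/6 to ask how their loss alters binding of transcription factors. Chromatin of ESCs was immunoprecipitated with antibodies to OCT4, SOX2, NANOG, Klf4 and CTCF, with 2 biological replicates per genotype, named here WT1, WT2, DKO1 and DKO2. No treatment or time point separates the samples, and how many clonal ESC lines stand behind each genotype is not given in the sources used here. The labels list 2 ESC inputs per genotype, and which input served which antibody is not given in the sources used here, so the comparisons of OCT4, SOX2, NANOG and Klf4 may share control reads. Peak lists do not measure transcripts or proteins, so the loss of HMGN1 and HMGN2 could not be checked from them.

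OCT4 (encoded by Pou5f1), SOX2 and NANOG form the core of the network that keeps ESCs pluripotent. OCT4 and SOX2 bind side by side on a composite DNA element, NANOG often occupies the same enhancers, and Klf4 joins them at part of these. CTCF is an insulator protein outside this network and served as a comparison.

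The lists fitted an ESC label. NANOG and OCT4 peaks of all 4 libraries lay within 10000 bp of Pou5f1, Sox2, Nanog, Klf4 and Esrrb, SOX2 peaks of all 4 near the same genes but Klf4, and near Zfp42 NANOG and Klf4 peaks of all 4. Tfcp2l1 was not found under that name in the annotation. OCT4 lists held 11140 (WT1), 12627 (WT2), 26742 (DKO1) and 30864 peaks (DKO2). A peak list holds no read totals. Depth was therefore estimated from the lowest background solved at OCT4 peaks, which was 0.924, 1.31, 1.03 and 1.43 expected reads per position in the same order. The ranges of the genotypes overlapped, and DKO was higher when libraries of the same number were set side by side. In bulk chromatin, a change in the share of cells that carry a factor and a change in its signal per cell cannot be told apart.

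Sequences of the mm9 genome show the DNA behind the strongest gained sites. The composite element was searched as the SOX letters CATTGT, any 1 base and the POU letters ATGCAAAT. Up to 3 mismatches in the 14 defined bases were allowed, either strand counted, and the window reached 100 bp to each side of the strongest OCT4 peak's summit. The 5 strongest sites with a match are shown first, as 61 bp of the plus strand written 5′ to 3′, with the match in capitals. Matches on the minus strand appear as their reverse complement. Each is named by the nearest protein-coding gene.
Rpp25, chr9:57358536-57358596, plus strand match: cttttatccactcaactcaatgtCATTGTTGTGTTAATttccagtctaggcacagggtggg
Tyw3, chr3:154210973-154211033, plus strand match: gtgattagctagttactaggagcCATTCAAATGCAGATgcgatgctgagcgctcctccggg
Cntnap5a, chr1:115774945-115775005, minus strand match: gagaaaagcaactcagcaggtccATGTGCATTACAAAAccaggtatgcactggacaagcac
Sfswap, chr5:129981664-129981724, minus strand match: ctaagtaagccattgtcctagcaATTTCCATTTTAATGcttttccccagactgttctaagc
Gm3436, chr9:70643334-70643394, minus strand match: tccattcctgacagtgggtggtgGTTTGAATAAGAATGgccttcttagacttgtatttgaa
All 5 matches had 3 mismatches, the most that the search allowed. The 2 strongest sites without a match are centred on their summit, so that the DNA under 2 of the 4 strongest gained sites can be read beside them.
Lrtm2, chr6:119274921-119274981, no match: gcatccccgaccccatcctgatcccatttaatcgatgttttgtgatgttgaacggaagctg
Tns3, chr11:8535979-8536039, no match: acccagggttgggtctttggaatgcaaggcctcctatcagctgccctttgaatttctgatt

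Within 100 bp of the summit, 24.5% of the 5016 gained sites held a composite match (95% exact interval 23.3% to 25.7%, counting error only). The share was 2.95% in windows of the same width 5000 bp away, 22.3% over all merged OCT4 sites and 34.9% at the 6522 NANOG-bound sites where OCT4 was called in all 4 libraries. No gained site held the element without a mismatch, and 5.36% held it with at most 2. At the summits of all 44142 NANOG sites called in both WT libraries the share was 13.7%. NANOG sites without any OCT4 peak had 6.64%.

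**Figure D1:**
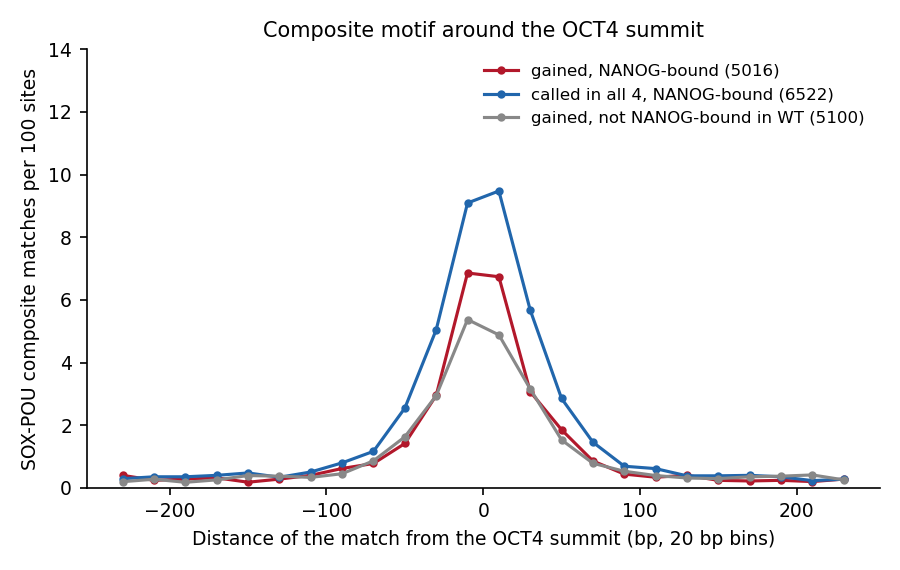
Composite matches per 100 sites (vertical axis) by distance from the OCT4 summit in bp (horizontal axis, bins of 20 bp) for the 5016 gained NANOG-bound sites, the 6522 NANOG-bound sites called in all 4 OCT4 libraries and the 5100 gained sites not NANOG-bound in both WT libraries. The gained NANOG-bound sites reach 6.86 matches per 100 sites just before the summit, between the other classes, which reach 9.09 and 5.37 there.

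Single parts of the element were also counted in the same windows, on both strands and without mismatches. Their positions can overlap those of the composite. The octamer ATGCAAAT was found at 9.27% of gained NANOG-bound sites, against 14% where OCT4 was called in all 4 libraries, 12.9% of all OCT4 sites and 1.06% of windows 5000 bp away. The SOX letters CATTGT was found at 21.5%, 24.5%, 18.3% and 11.6% in the same order. The letters GGGNGTGG, bound by KLF proteins, were found at 10.5%, 7.84%, 8.04% and 5.74%. TAATGG, a homeodomain sequence of the kind NANOG binds, was found at 12.3%, 12.8%, 10.7% and 8.59%. The gained NANOG-bound sites thus held fewer octamers and more KLF letters than the NANOG-bound sites called in all 4 libraries, with a median GC content of 45.3% against 42.8%. Gained sites outside NANOG-bound regions went the other way, with octamers at 16.4% and KLF letters at 6.88%.

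OCT4 itself was moderate at the gained sites. Their median fold enrichment, the pileup at the summit over the local background, was 8.53 in DKO1 and 9.05 in DKO2, and the highest values were 36.8 and 48.8. NANOG-bound sites called in all 4 libraries had medians of 12.6 and 13.3 in WT1 and WT2 and of 25.9 and 28.3 in DKO1 and DKO2. Gained sites outside NANOG-bound regions had the lowest medians, 7.76 and 8.15. The median width of the gained sites was 322 bp, against 316 bp over all OCT4 sites, 295.5 bp at gained sites outside NANOG-bound regions and 505 bp at NANOG-bound sites called in all 4 libraries.

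**Figure D2:**
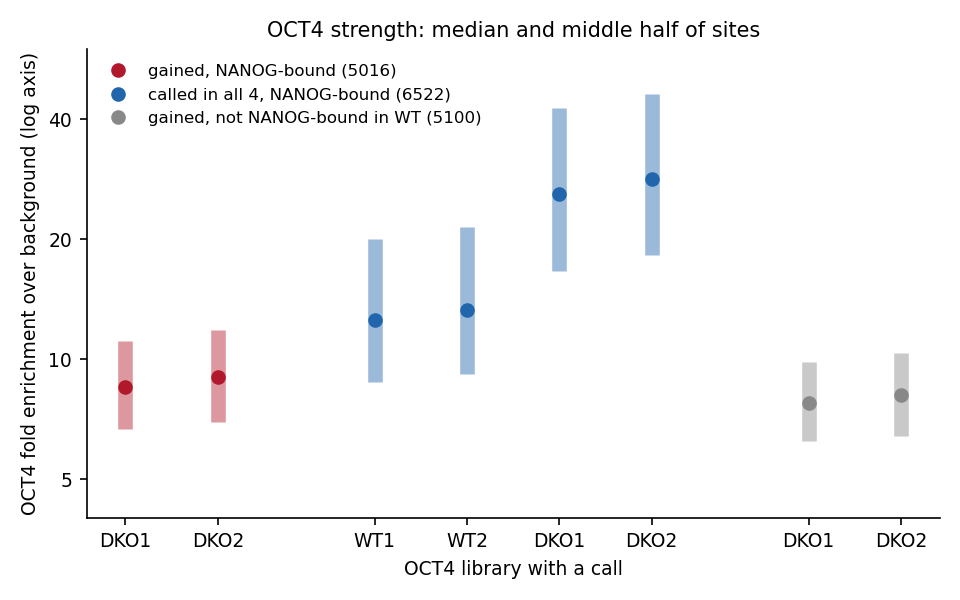
OCT4 fold enrichment over the local background (vertical log axis) in each OCT4 library that called the sites (horizontal axis) for 3 classes of sites. Points are medians and bars run from the first to the third quartile. The gained NANOG-bound sites have medians of 8.53 and 9.05, below the WT medians of 12.6 and 13.3 at NANOG-bound sites called in all 4 libraries.

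At sites called in all 4 libraries the OCT4 signal was higher in DKO cells. Over the sites that each library called, median fold enrichment was 10.6 and 10.3 in WT1 and WT2 and 10.2 and 9.70 in DKO1 and DKO2. At the 9434 sites called in all 4 OCT4 libraries the median log2 fold enrichment was 0.93 higher in DKO, and 97.0% of these sites were higher. At the 6522 of them that were NANOG-bound it was 1.03 higher. A site without a WT peak has no WT value in these lists, so no fold change can be given for the gained sites. The part of the rise at shared sites in the gain was not tested.

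The gained sites filled the weaker end of OCT4 binding, which the rule itself favours. A site called in a WT library cannot be gained. Of the classes below, 2.03% of the weakest and 100% of the strongest were called in both WT libraries. When the 13298 NANOG-bound sites called in both DKO libraries were ranked by their mean −log10 q in DKO and cut into 10 classes, 91.5% of the weakest class were gained, 41.4% of the fifth and 9.92% of the seventh. The eighth class held 27 gained sites of 1330, the ninth held 1, which lay near Lrtm2, and the strongest held 0. The lowest −log10 q of a gained site was 2.01, at the limit of the lists. Just outside the rule, 1760 NANOG-bound sites were called in both DKO libraries and in 1 WT library, with a median WT −log10 q of 11.1 and a lowest of 2.09. A further 3335 NANOG-bound sites were called in 1 DKO library only, with a median −log10 q of 8.17.

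Among the strongest gained sites, 1 site stood apart. It lay in an intron of Cacna2d4, which encodes an auxiliary subunit of voltage-gated calcium channels, 4271 bp from the start of Lrtm2 (chr6:119274807-119275374). OCT4 fold enrichment was 36.8 in DKO1 and 48.8 in DKO2, with no peak in WT1 or WT2. NANOG fold enrichment there was 14.3 in both WT libraries and 26.1 and 23.7 in DKO1 and DKO2. SOX2 was called in DKO2 alone, at 6.03. Klf4 was not called.

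The other 9 of the 10 strongest gained sites had OCT4 fold enrichments of 21.8 to 31.9 in DKO1 and 26.1 to 32.9 in DKO2. Among them were an intergenic site 49055 bp from Tyw3, a tRNA modification gene (chr3:154210729-154211159), an intronic site of Tns3, which encodes a focal adhesion protein (chr11:8535838-8536267), and an intronic site of Gnai2, which encodes a G protein subunit (chr9:107532900-107533300). At the Tyw3 site SOX2 fold enrichment was 6.00 and 4.72 in WT1 and WT2 and 17.3 and 18.95 in DKO1 and DKO2, and NANOG was 19.3 and 16.4 in WT and 50.1 and 44.4 in DKO, so that neither factor overlapped between genotypes. The Tns3 site had lower NANOG fold enrichment in DKO, 29.5 and 31.3 against 48.4 and 51.3. SOX2 there was 9.67 and 11.3 in WT and 6.33 and 9.60 in DKO, so that both DKO values lay below both WT values, the higher by a small margin. By −log10 q both factors overlapped between genotypes there. NANOG had 291 and 314 in WT and 279 and 302 in DKO, and SOX2 27.9 and 34.6 in WT and 21.7 and 51.8 in DKO. At the Gnai2 site SOX2 was 5.54 and 7.53 in WT and 11.3 and 17.2 in DKO. At the site nearest Rpp25, which encodes a subunit of RNase P, SOX2 was 5.32 and 4.45 in WT and 6.77 and 10.02 in DKO. The 3 weakest gained sites, whose nearest genes were 6430527G18Rik, Galnt5 and 4930452B06Rik at 14816, 141240 and 354103 bp, had OCT4 fold enrichments of 2.97 to 3.95. The last of them held SOX2 peaks of 13.5 and 11.2 in DKO1 and DKO2 and none in WT.

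NANOG was still called at most gained sites, as at other NANOG-bound sites. It was called at 4890 of them in DKO1 and 4898 in DKO2, which is 97.5% and 97.6%, after 100% in WT by the rule. At NANOG-bound sites called in all 4 OCT4 libraries the shares were 98.5% and 98.7%. All 4 NANOG libraries held 96.3% of the gained sites and 96.1% of all OCT4 sites that were NANOG-bound in both WT libraries. The closest NANOG summit lay a median of 13 bp from the OCT4 summit, and 90.6% lay within 100 bp. The gained sites outside NANOG-bound regions were chosen to lack NANOG in 1 or both WT libraries, which holds their WT shares down, so their NANOG calls are not compared between genotypes.

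Gained OCT4 was found across the whole range of NANOG strength. The 44142 NANOG sites of both WT libraries were cut into 10 classes of WT −log10 q. A gained OCT4 site was present at 6.09% of the weakest class, 17.4% of the ninth and 15.3% of the strongest. OCT4 called in all 4 libraries rose over the same classes from 3.69% to 54.7%, and such sites cannot be gained. Among the sites not called in all 4, the gained share was 6.33% in the weakest class, 24.1% in the ninth and 33.8% in the strongest. Median WT NANOG fold enrichment was 10.96 at gained sites, 18.3 where OCT4 was called in all 4 libraries and 7.66 where no library called OCT4. OCT4 was in no list at 61.3% of WT NANOG sites.

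**Figure D3:**
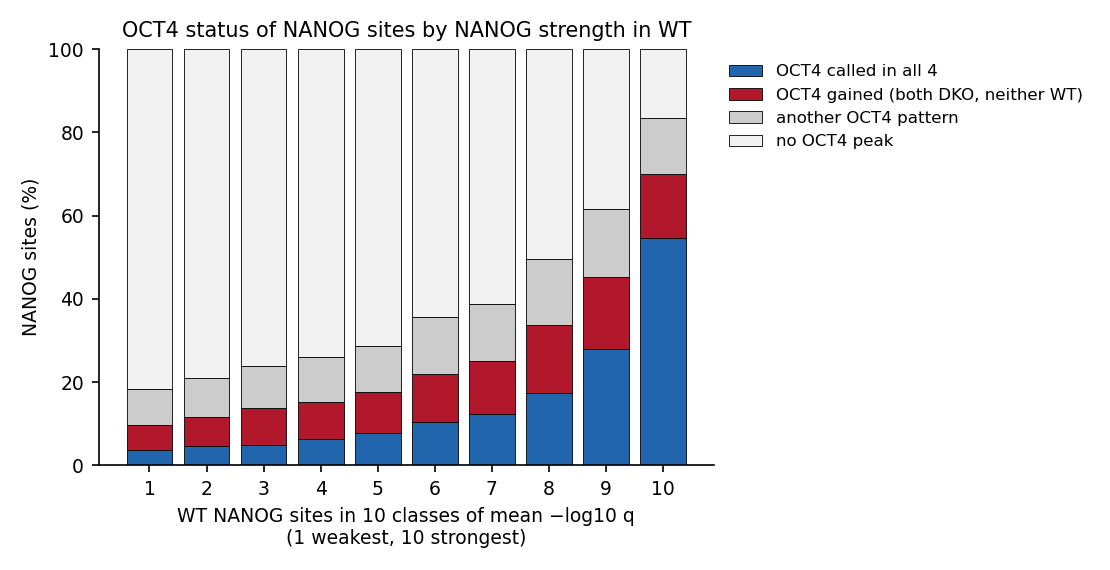
Percent of WT NANOG sites (vertical axis) by OCT4 status, in 10 classes of mean WT NANOG −log10 q from weakest to strongest (horizontal axis, 4414 or 4415 sites each). The gained share grows from 6.09% to 17.4% in class 9 and is 15.3% in class 10, while the share called in all 4 OCT4 libraries, which cannot be gained, goes from 27.8% to 54.7% between those classes.

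By fold enrichment, NANOG strength at the gained sites moved in both directions. Of 4844 NANOG sites that were called in all 4 libraries and overlapped gained OCT4 sites, 733 (15.1%) were higher and 538 (11.1%) lower in DKO at an adjusted p below 0.05 in limma. Over all 39762 NANOG sites tested, 13% were higher and 11.1% lower. The gained sites were chosen by NANOG peaks in WT1 and WT2, so their WT values were conditioned on. Every site in this fit was likewise called in all 4 NANOG libraries. Median log2 differences were 0.03 at the gained sites and 0.02 over all sites. With log2 of −log10 q in place of fold enrichment no NANOG site passed in limma. The 1522 sites at gained OCT4 sites with an unadjusted p below 0.05 were then mostly higher, 1408 against 114 lower. On that scale the median log2 difference was 0.40 at the gained sites and 0.36 over all NANOG sites, and 79.2% and 74.9% of sites were higher in DKO, so the balance of directions depended on the measure. With 2 of 4 calls required and missing values set to the lowest of the library, 398 of 5051 were higher and 332 lower. NANOG sites called in WT alone enter this count with filled DKO values, which sets them lower by construction. Without DKO1 the counts were 166 and 112, without DKO2 they were 167 and 107, and without WT1 the lower count was 340.

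The NANOG site that rose most lay in an intron of Esrrg, which encodes an orphan nuclear receptor (chr1:189742084-189742573). Its fold enrichment was 4.19 and 3.54 in WT1 and WT2 and 19.2 and 20.6 in DKO1 and DKO2, a log2 difference of 2.37 ± 0.18 (SE, limma adjusted p = 0.00579). Intronic sites of Ncoa7, a nuclear receptor coactivator gene, and Hpse2 rose by 1.89 and 1.80. The NANOG site that fell most lay in an intron of Lmtk3, nearest the start of Cyth2, with 15.3 and 15.5 in WT and 3.58 and 3.38 in DKO, and it fell by 2.15 ± 0.17. A site in an intron of Zfyve9, which encodes the SMAD anchor SARA, fell from 21.8 and 27.6 to 7.67 and 7.88 (chr4:108410892-108411373). A site 96963 bp from Ifngr1, an interferon gamma receptor gene, fell by 2.14 ± 0.24. The genotypes did not overlap at any of these sites.

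SOX2 was called more often at the gained sites in DKO. WT1 and WT2 held 1659 and 1653 of them, a mean of 1656 ± 4.24 (SD, n = 2), and DKO1 and DKO2 held 2540 and 2706, a mean of 2623 ± 117. The shares were 33.1%, 33.0%, 50.6% and 53.9%, and over all OCT4 sites 20.6%, 20.4%, 28.1% and 29.4%. The difference of 967 sites was larger than the spread between replicates, but 2 against 2 libraries cannot go below p = 0.333 in an exact two-sided permutation test, which is the value it gave (0.5 after adjustment over 3 antibodies). With the same number of top SOX2 peaks from each library the difference was 89 sites, with shares of 32.7%, 33.0%, 34.2% and 35.0%. The DKO lists held 16174 and 17144 SOX2 peaks against 10324 and 10222 in WT.

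The NANOG-bound sites called in all 4 OCT4 libraries had higher SOX2 shares, 61.7% and 60.7% in WT and 73.9% and 75.6% in DKO. Gained sites outside NANOG-bound regions had almost none, 0.333% and 0.216% in WT and 1.51% and 1.71% in DKO. SOX2 was called in all 4 libraries at 1267 gained NANOG-bound sites (25.3%), in both DKO and neither WT library at 552 (11%), and in none at 1906 (38%). Over all OCT4 sites these shares were 16.8%, 4.67% and 66.8%, and at NANOG-bound sites called in all 4 OCT4 libraries 54.0%, 7.67% and 18.9%. Counted as SOX2 sites, 560 of the 3128 that overlapped gained OCT4 sites (17.9%) were called in both DKO and neither WT library, against 16.6% of all 20747 SOX2 sites. Read per SOX2 site the joint gain was thus near the background, while read per OCT4 site its share was above that over all OCT4 sites. The closest SOX2 summit lay a median of 17 bp from the OCT4 summit.

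**Figure D4:**
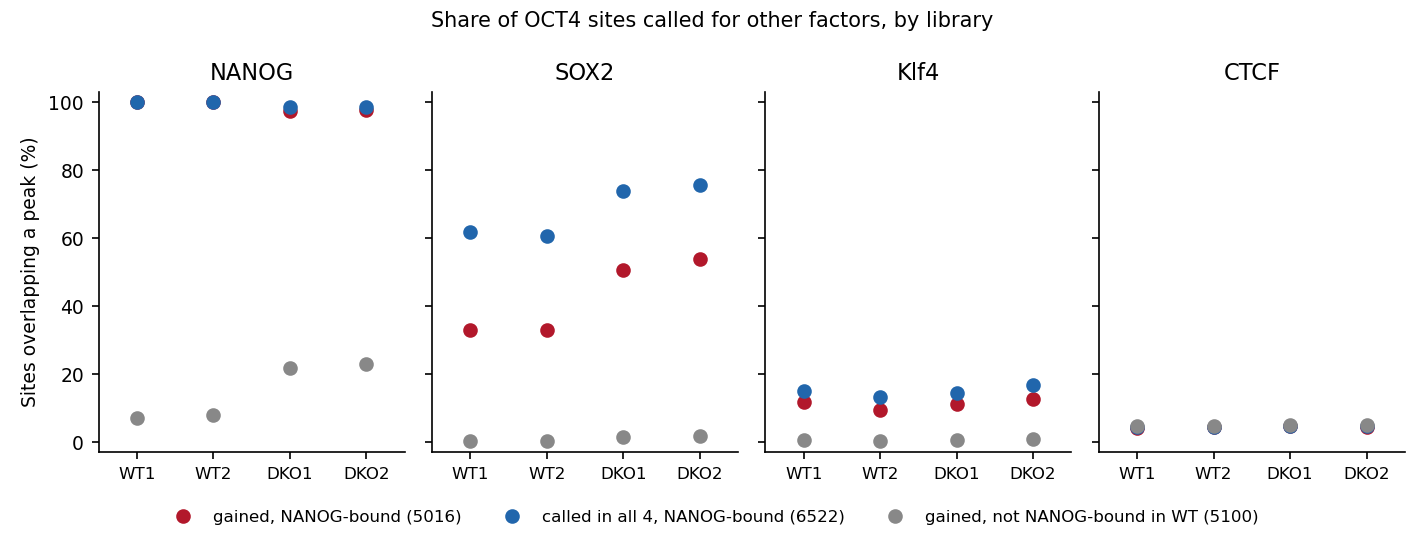
Percent of OCT4 sites that overlap a peak of NANOG, SOX2, Klf4 or CTCF (vertical axis) in each library of that antibody (horizontal axis), for 3 classes of OCT4 sites with their numbers in brackets. SOX2 covers 33.1% and 33.0% of the gained NANOG-bound sites in WT and 50.6% and 53.9% in DKO, while CTCF lies between 4.29% and 4.70%. The WT NANOG values were set by how the classes were chosen.

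Where SOX2 was called in all 4 libraries, it was stronger in DKO. Of 1278 such SOX2 sites at gained OCT4 sites, 357 (27.9%) were higher and 50 (3.91%) lower in limma, against 30% higher and 4.06% lower of all 7694 SOX2 sites. The median log2 difference was 0.34, and 0.35 over all SOX2 sites, a general shift that the gained sites shared. With each library centred on its median the value at the gained sites was −0.05, and centring left 134 higher and 156 lower. Log2 of −log10 q gave 555 higher and 1 lower. With 2 of 4 calls required and missing values set to the lowest of the library, 798 of 2452 were higher and 39 lower. SOX2 sites called in DKO alone enter this count with filled WT values, which sets them higher by construction. Without WT2, DKO1 or DKO2 the lower count was 33, 28 or 31.

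The SOX2 site that rose most at a gained OCT4 site lay 52610 bp from Iqsec3, with fold enrichments of 2.98 and 2.69 in WT and 15.8 and 18.9 in DKO (chr6:121476199-121476504). Its log2 difference was 2.61 ± 0.21 (SE, limma adjusted p = 0.000261). A site 5416 bp from Dnase1, which encodes a secreted nuclease, rose from 3.57 and 4.59 to 26.3 and 21.7. An intronic site of Grip1, a glutamate receptor scaffold gene, rose by 2.07 ± 0.21. The Zfyve9 site was also the SOX2 site that fell most, from 14.8 and 10.2 to 4.02 and 3.10 (log2 difference −1.79 ± 0.25). A SOX2 site 7279 bp from Otx2, a gene of the formative state, fell by 1.13 ± 0.27, from 7.16 and 12.7 to 4.38 and 4.32. Its −log10 q overlapped between genotypes, with 17.5 and 47.8 in WT and 19.6 and 22.4 in DKO.

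NANOG values were also read by SOX2 pattern, each antibody against its own libraries. At the 552 gained OCT4 sites with SOX2 in both DKO and neither WT library, median NANOG fold enrichment was 10.8 and 10.9 in WT1 and WT2 and 14.6 and 14.7 in DKO1 and DKO2. At the 500 sites with the same SOX2 pattern and OCT4 in all 4 libraries it was 11.5 and 11.3 in WT and 15.2 and 14.8 in DKO, so this was not particular to gained OCT4. At gained OCT4 sites without SOX2 in any list the NANOG medians were 7.35, 7.47, 7.62 and 7.55. Because the antibodies may share inputs, as stated above, a higher NANOG value beside a gained SOX2 call is not an independent observation, and the part of the inputs in it was not tested.

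NANOG strength in WT followed SOX2 presence. Median NANOG fold enrichment in WT1 was 25.1 at gained OCT4 sites with SOX2 in all 4 libraries, 10.8 with SOX2 in DKO only and 7.35 without SOX2. OCT4 differed less, with DKO1 medians of 9.21, 9.01 and 7.95. The share with a composite match was 25.3%, 30.4% and 20.3%. At NANOG-bound sites called in all 4 OCT4 libraries, WT1 NANOG medians were 32.6, 11.5 and 7.63 in the same order. The order of NANOG was thus not particular to gained OCT4. Composite shares there were 39.2%, 34% and 23.1%. When the gained sites were split into 4 equal groups by OCT4 −log10 q, the share with a composite match was 13.5%, 23.4%, 27.1% and 33.8% from the weakest to the strongest. SOX2 was called in both DKO libraries at 35.5%, 43.3%, 43.6% and 57.9% of the same groups. In both WT libraries, where OCT4 was not called, it was present at 21.6%, 23.4%, 24.8% and 35.5%.

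The 5 strongest gained sites with SOX2 in both DKO and neither WT library had Cntnap5a, Gm3436, Rps3a, Tet2 and C77080 as their nearest genes, at 1806327, 57037, 22932, 33061 and 3366 bp. The Rps3a site, in an intron of Sh3d19, had SOX2 fold enrichments of 12.8 and 11.5 in DKO1 and DKO2, and NANOG was 23.6 and 22.6 in WT and 34.0 and 35.5 in DKO. The site nearest Tet2, which encodes a DNA dioxygenase acting on methylated cytosine, had SOX2 values of 7.71 and 5.17 and NANOG values of 7.41 and 5.20 in WT and 5.37 and 5.85 in DKO, which overlapped (chr3:133240256-133240634).

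Klf4 was present at a minority of the gained sites, and its calls overlapped between genotypes. It was called at 590 and 468 sites in WT1 and WT2 (529 ± 86.3, SD, n = 2) and at 564 and 638 in DKO1 and DKO2 (601 ± 52.3), with p = 0.667 in the exact permutation test (0.667 adjusted). The shares were 11.8%, 9.33%, 11.2% and 12.7% at the gained sites, 6.31%, 5.21%, 5.99% and 6.92% over all OCT4 sites, and 15.1%, 13.2%, 14.5% and 16.8% at NANOG-bound sites called in all 4 OCT4 libraries. The difference of 72 sites was 133 without WT1, 11 without WT2, 109 without DKO1, 35 without DKO2 and 7 with equal numbers of top peaks. Of 909 Klf4 sites at gained OCT4 sites, 60 (6.60%) were called in both DKO and neither WT library, against 6.1% of all 8980.

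Klf4 strength fell at 6 (1.89%) and rose at 3 (0.946%) of 317 Klf4 sites tested at gained OCT4 sites in limma, against 2.47% lower and 1.43% higher of all 2310. Median log2 differences were −0.13 and −0.08. Centring each library on its median gave 9 lower and 17 higher, and the trended variance model 10 lower and 8 higher. With 2 of 4 calls required in place of 4 and missing values set to the lowest of the library, 0 of 630 Klf4 sites passed in limma in either direction, with 132 at an unadjusted p below 0.05, and log2 of −log10 q gave 1 lower and 2 higher. The lower count was 15 without WT2, and the higher count was 6 without WT1 or WT2 and 1 without DKO2. The largest fall was in an intron of Dtnb, which encodes a dystrobrevin, from 10.3 and 11.1 to 2.88 and 3.52 (log2 difference −1.75 ± 0.26, limma adjusted p = 0.00186). The largest rise was in an intron of Heatr2, from 6.39 and 6.06 to 16.6 and 12.9 (1.24 ± 0.27, limma adjusted p = 0.0137). The strongest gained OCT4 site with Klf4 in both DKO and neither WT library lay 306 bp from the start of Rpp40, another RNase P gene, with weak Klf4 peaks of 2.44 and 3.05. A site 688 bp from the start of Mtap1b, which encodes a microtubule-associated protein, held Klf4 at 6.97 and 3.42 in DKO1 and DKO2.

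CTCF, the comparison factor, was called at 215, 221, 236 and 231 gained sites in WT1, WT2, DKO1 and DKO2, a difference of 15.5 sites (218 ± 4.24 against 234 ± 3.54, SD, n = 2, p = 0.333 in the exact permutation test, 0.5 adjusted). Its share was 4.29% to 4.70%, and 4.61% to 4.96% over all OCT4 sites. With summits within 100 bp of the OCT4 summit the CTCF difference was 5 sites. When NANOG, SOX2 and Klf4 calls in DKO were combined, 1722 gained sites (34.3%) held NANOG in both libraries with SOX2 and Klf4 in neither. NANOG and SOX2 were called in both, without Klf4 in both, at 1903 (37.9%), and all 3 factors in both at 357 (7.12%). Over the 16929 OCT4 sites that were NANOG-bound in both WT libraries the shares were 29.9%, 44.04% and 8.23%, and at those called in all 4 OCT4 libraries 17.9%, 58.6% and 11.5%.

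The gained sites were mostly distal. A protein-coding transcript started within 1000 bp of 6.76% of them (95% exact interval 6.08% to 7.49%), against 4.49% of NANOG-bound sites called in all 4 OCT4 libraries, 9.73% of gained sites outside NANOG-bound regions and 7.91% of all OCT4 sites. By the GENCODE vM1 annotation, 55.7% of their summits were intergenic, 40.8% intronic and 3.53% exonic, and the median distance to a start was 27356 bp. An OCT4 site called in all 4 libraries lay within 10000 bp of 17.7% of them, close to the 15.9% over all OCT4 sites. Only 89 had a WT OCT4 peak within 500 bp. Chromosome X held 98 (1.95%), against 1.92% of all OCT4 sites.

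The gained sites were spread over many genes. They were nearest to 3631 protein-coding genes, 2735 of them with 1 site and 304 with 3 or more, and 45.1% of these genes were also nearest to a NANOG-bound site called in all 4 OCT4 libraries. Tle4, which encodes a Groucho family corepressor, had the most, 10 gained sites beside 8 called in all 4, followed by Egln3, a prolyl hydroxylase gene, with 9. Irx3, a homeobox gene, had 8 gained and 3 called in all 4. Zfp462 had 7 and 2, and Tet2 had 6 and 3. These genes were named after their counts were seen, and a wide intergenic space gives a gene more sites.

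Most core and naive pluripotency genes were nearest to a gained site, but not always a close one. Such sites were few, 5 for the core factors and 41 for the naive network among the 5016. No gained site lay within 10000 bp of Pou5f1, Sox2, Nanog, Klf4 or Zfp42, and 1 lay within 10000 bp of Esrrb. Of the genes annotated in each list, a gained site was nearest to 2 of 3 core factors (Sox2 and Nanog), 20 of 30 genes of the naive network, 9 of 15 formative and primed genes, 18 of 36 genes of LIF, BMP, WNT, FGF and Nodal signalling, and 4 of 21 early lineage specifiers. Over all protein-coding genes the share was 16.3%. NANOG-bound sites called in all 4 OCT4 libraries were nearest to 3 of 3, 25 of 30, 9 of 15, 21 of 36 and 10 of 21, with 19.3% over all genes. Naive genes with a gained site included Klf4, Klf5, Esrrb, Tbx3, Zfp42, Prdm14, Nr5a2, Tet1 and Tet2. Among the signalling genes were Lif, Lifr and Il6st, which encode the cytokine LIF and its receptor chains, and the feedback inhibitors Socs3, Spry2, Spry4 and Dusp6. Gata6, Pax6, Gsc and Evx1 were the early lineage specifiers with a site. The lists do not correct for the space around a gene, and nearness does not show that a site acts on the gene.

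The strongest gained sites with a listed gene as the nearest differed in their partner factors. At a site 995 bp from the start of Prdm14, a regulator of the naive state, OCT4 was 25.1 and 23.2 in DKO1 and DKO2 (chr1:13118093-13119112). SOX2 there was 9.90 and 7.53 in WT and 15.2 and 13.1 in DKO, NANOG 30.6, 42.2, 36.3 and 43.8 in WT1, WT2, DKO1 and DKO2, and Klf4 was called in WT only, at 7.88 and 7.19. At a site 6219 bp from Dnmt3b, a de novo DNA methyltransferase gene, NANOG was 30.7 and 29.8 in WT and 20.3 and 23.9 in DKO, and SOX2 overlapped between genotypes, with 6.16, 6.96, 3.8 and 9.42. By −log10 q NANOG also overlapped there, with 159 and 147 in WT and 152 and 192 in DKO. The site 58435 bp from Il6st held SOX2 at 6.93 and 8.02 in WT and 14.8 and 13.4 in DKO, with NANOG overlapping at 24.1, 30.4, 30.4 and 27.5. A site 30583 bp from Sox11, a neural SOX gene, had NANOG at 23.5 and 30.5 in WT and 47.1 and 47.8 in DKO, and SOX2 at 6.33, 4.42, 11.5 and 9.80. At a site 272486 bp from Tbx3, a T-box gene of the naive network, SOX2 was called in DKO only, at 5.64 and 6.47, and NANOG was 6.74 and 8.04 in WT and 11.04 and 12.7 in DKO. A site 85066 bp from Sox2 itself had SOX2 in WT2, DKO1 and DKO2, at 3.82, 3.07 and 5.58, and NANOG at 27.1, 37.2, 27.7 and 32.8. The sites 20196 bp from Gsc and 170462 bp from Sox4 had lower NANOG fold enrichment in DKO. It was 20.7 and 21.4 in WT and 19.8 and 16.2 in DKO at Gsc, and 23.1 and 23.2 in WT and 19.9 and 19.8 in DKO at Sox4. By −log10 q NANOG was higher in DKO at both, and SOX2 fold enrichment overlapped between genotypes. These values are not covered by a test of their own.

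The number of gained sites rested on how much was called in each OCT4 library. With the 11140 strongest peaks of each library, the rule gave 734 gained NANOG-bound sites, and the reverse rule (both WT and neither DKO library) gave 366. With all peaks the reverse rule gave 17. Thinning the OCT4 libraries to the lowest background left 4899.

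Peaks of other cells gave the level of overlap with active chromatin outside ESCs. H3K27ac peaks of mouse embryonic fibroblasts overlapped 10.6%, 9.95%, 10.2% and 10.3% of the gained sites in WT1, WT2, DKO1 and DKO2 of that antibody, and 9.88% to 10.3% of all OCT4 sites. IKAROS peaks of resting B cells overlapped 0.977% to 2.01%, and 0.882% to 2.002% of all OCT4 sites.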

How the data were processed

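ChIP-seq peak lists of ESCs (5 antibodies, 2 WT and 2 DKO libraries each, 20 lists) and 8 lists of other cells were read. The submitters' processing notes name cutadapt 1.16, BWA 07.17, MACS2 2.1.1.20160309 and mm9. Peaks were called by the authors in each library, without pooling replicates. The deposited fold enrichment is the authors' ratio of summit pileup to local background. Each deposited peak also carries −log10 p and −log10 q of its summit, computed by the authors, and no q was above 0.01.

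The gained sites and gene lists were chosen with earlier results of these data known. Peaks were merged at 1 bp overlap with Python 3.11.15 and pandas 2.3.3. Log2 of the highest fold enrichment per library was compared at sites called in all 4 libraries of an antibody with limma 3.58.1 in R 4.3.3, fitted on all such sites without a block, with Benjamini-Hochberg adjustment at 0.05. Missing calls were not imputed in this fit. Numbers of calls per library were compared with an exact two-sided permutation test. Motifs were searched in the mm9 sequence and genes taken from GENCODE vM1 of the same build. Named sites were the 10 strongest and 3 weakest by mean DKO −log10 q, the 5 strongest with SOX2 or Klf4 in DKO only, up to 5 limma calls per direction and antibody, and up to 10 near listed genes. Some of these are described by range only. The 5 strongest sites with a composite match and the 2 strongest without gave the sequences. The steps were tested on simulated data.

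Pileup and background were solved from fold enrichment and −log10 p (tolerance 0.0005). This failed for NANOG, CTCF and SOX2 DKO2, whose depth is unknown. Intervals cover counting error only. Alternatives covered thresholds, overlap, equal peak numbers, thinning, scaling, other measures, filters, the variance model, a replicate block and left-out replicates. Input reads, gene expression and HMGN occupancy were not analysed here.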

Additional observations from a re-analysis of the deposited data

How the results depend on the processing

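Of 106 values recomputed under the alternatives, 35 moved beyond their limits. For the differences in SOX2, Klf4 and CTCF calls the limit was a change of sign. These differences kept their sign but not their size, falling to 89, 7 and 5 sites with equal peak numbers. The exact permutation test played no part in this limit, since 2 against 2 libraries cannot reach a p below 0.333 in it. The number of gained sites was 734 with equal numbers of top OCT4 peaks, and 5581 to 7300 with a replicate left out. Centring on the median of each library gave 134 higher and 156 lower SOX2 sites and 17 higher Klf4 sites, and turned the median at gained sites from 0.34 to −0.05 for SOX2 and from 0.03 to −0.01 for NANOG. Log2 of −log10 q gave 0 higher and 0 lower NANOG sites, 555 higher and 1 lower SOX2 sites and 1 lower Klf4 site. With at least 2 of 4 calls and missing values set to the lowest of the library, there were 398 higher and 332 lower NANOG sites, 798 higher SOX2 sites, and 0 higher and 0 lower Klf4 sites (132 with an unadjusted p below 0.05 in limma). This filling sets sites called in 1 genotype alone apart by construction, so these counts are no separate evidence of a difference. The trended variance model gave 8 higher and 10 lower Klf4 sites. Why these counts moved was not tested. Leaving out a replicate, with the lone library of an arm assumed to vary like the other group, gave 166 to 547 higher and 107 to 372 lower NANOG sites, 250 to 339 higher and 28 to 36 lower SOX2 sites, and 1 to 6 higher and 5 to 15 lower Klf4 sites. The NANOG sites called in DKO numbered 4194 on average with summits within 100 bp of the OCT4 summit, 4864 at a −log10 q of at least 5 and 4759.5 with equal peak numbers. The composite share was 19.7% within 50 bp and 5.36% with at most 2 mismatches. Near promoters lay 17.1% of gained sites within 5000 bp and 9.47% with starts of all gene types.

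Across sites, the deviations between replicates of WT and of DKO were nearly uncorrelated by replicate number (0.0059 for NANOG, 0.0080 for SOX2 and −0.0029 for Klf4). This correlation cannot see a shift common to all sites, such as depth, and OCT4 was not checked. Whether replicate numbers pair the samples is therefore not settled. With a replicate block the counts were 681 higher and 483 lower NANOG sites, 389 and 54 SOX2 sites, and 4 and 9 Klf4 sites, all within 1.5 times of the values without it. Depth limits the absence of a WT OCT4 call, since lists hold no value below their threshold. Groups of 2 replicates were too small to look for outlying libraries.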
